A study of Mus musculus with 9 samples.

Results

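The genes that changed in the same direction in both cell types grown without bFGF were taken from 1 fit of all 9 libraries of the series. AFSC, mouse stem cells kept in Activin A and bFGF, were contrasted with the mean of the group means of ABSC and ALSC, the cells derived from them and kept without bFGF. A gene is called shared, and said to have risen or fallen without bFGF, where the contrast passed an adjusted p of 0.05 and both cell types moved to the same side of AFSC. Of 16178 genes tested, 1003 were shared, 463 of which rose and 540 of which fell. Among the members, the epiblast regulators Pou3f1, Sall2 and Sox2 and the p53 targets Mdm2 and Perp were lower in all 6 libraries without bFGF than in all 3 AFSC libraries. Gdf3, Nanog, Tdgf1 and the antiviral helicase gene Mov10 were higher in all 6.

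AFSC are described as resembling epiblast stem cells, which are derived from the pluripotent tissue of the implanted embryo. They were derived from blastocysts of Sv129 x GOF/GFP F1 mice in Activin A and bFGF and collected at passages 15 to 20. ABSC, described as resembling trophoblast stem cells, and ALSC were made from AFSC by over 5 passages in another medium. ABSC grew in Activin A and BMP4 and were collected at passages 25 to 30. The medium of ALSC is read here as Activin A with LIF (leukaemia inhibitory factor), but the protocol gives this recipe the short name of the medium used for ABSC. ALSC were collected at passages 20 to 25. All 3 groups thus share the strain and Activin A. Both groups without bFGF also received a new factor and are of higher passage, and an RNA kit of another kind is named for ALSC. The absence of bFGF, the added factors and the passage number cannot be told apart in this design. The labels do not say whether the 3 libraries of a group came from separate cultures, so the p-values measure only the spread between these libraries.

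Basic fibroblast growth factor (bFGF, the product of Fgf2) binds FGF receptors together with heparan sulfate on the cell surface and signals through RAS, RAF, MEK and ERK. ERK signalling switches on its own inhibitors, among them the dual-specificity phosphatases and Sprouty proteins, and the ETS factors Etv4 and Etv5. Epiblast stem cells are usually kept on FGF and Activin A, and FGF signalling is known to favour the primed over the naive state of pluripotency.

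Total counts ran from 19020419 to 21627656 per library. Levels are given as CPM (read counts divided by library size, with TMM scaling factors), in the order of the library numbers 1, 2 and 3, and changes are log2 fold changes without bFGF against with it, so a positive value is higher without bFGF. The libraries numbered 1 stood apart from those numbered 2 and 3 in every group. The scatter between the libraries of a group, as chi-square over its degrees of freedom, was 12.7 to 25.9 in pairs with library 1 and 2.1 to 4.23 in pairs without it. The mitochondrial share of counts was 0.794% in ABSC 1 and 1.36% to 1.68% in the other 8 libraries. Counts of shared genes are therefore given also with the library number as a block and without the libraries numbered 1.

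Most shared changes were of moderate size. The median change was 0.61 among the genes that rose and -0.69 among those that fell, against -0.00133 over all genes tested, and 142 genes rose and 160 fell by at least 2-fold. In 789 of the 1003 genes the 3 AFSC libraries lay wholly on 1 side of the other 6, as they did in 9.82% of all genes tested (4.77% with AFSC lowest and 5.05% with AFSC highest). Shared genes were 6.2% of the genes tested, 2.86% rising and 3.34% falling, and 58 further genes passed the contrast with opposite signs in ABSC and ALSC, so that 6.56% passed it with any sign. Each cell type alone differed from AFSC in 7.98% of genes (ABSC) and 7.04% (ALSC), with the same 3 AFSC libraries as control. The change was of like size in both cell types, the smaller at least 0.5 of the larger, in 589 of the shared genes. ABSC and ALSC themselves differed in 352 of the 1003 (35.1%), in a test that does not use the AFSC levels and that called 11% of all genes (5.41% higher and 5.56% lower in ABSC). The contrast can thus be carried by 1 cell type. Each group's own change or level is given below for many genes, but not for all. With the library number as a block the count of shared genes was 2820, and without the libraries numbered 1 it was 3762. Leaving out AFSC 2 lowered it to 345, AFSC 3 to 369, ABSC 2 to 651, AFSC 1 to 666 and ABSC 3 to 667. Of the 1003 genes, 994 were also shared with the block and 341 without AFSC 2, and 0 were called in the opposite direction under any alternative. Of the shared genes 184 overlap another tested gene, whose reads an unstranded count may not separate; among those named below these are Apobec3, Atg9b, Col4a2, Dnmt3b, Fbxo15, Fgfr1, Grm6, H2afy2, Igf2r, Nefl, Nefm, Pdia3, Sesn2, Slc2a3, Snrpn, Stat3, Tapbp and Top2a. Of the shared genes chosen by the naming rule and named below, those that lost their call when 1 or more single libraries were left out were Acta2, Bambi, Cdh11, Col4a2, Dnmt3a, Dnmt3b, Etv4, Ext1, Fgfr1, Fosl1, Gpc3, Grm6, Gtse1, Jph4, Klf5, Mapk3, Msx1, Ndn, Psmb8, Rasgrp1, Sesn2, Slc2a3, Stat3, Steap3, T, Tfap2c, Top2a and Wnt8a.

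Of 20 tested genes listed for the primed epiblast, the state that epiblast stem cells represent, 5 fell and 0 rose, against 3.34% and 2.86% of all genes, with a median change of -0.21. The same shares of all genes stand beside the counts of every list below. Pou3f1, a POU transcription factor also called Oct6, was at 78.2, 83.1 and 71.8 CPM in AFSC, 51.8, 59.5 and 50.9 CPM in ABSC and 29.1, 31.1 and 28.0 CPM in ALSC. The 3 groups did not overlap, and the order was AFSC, ABSC, ALSC from high to low. The shared change of Pou3f1 was -0.96 (SE 0.07, adjusted p = 9.32e-05). Sall2, a zinc finger factor, was at 106, 96.0 and 94.4 CPM in AFSC, 71.2, 57.5 and 63.1 CPM in ABSC and 53.7, 69.8 and 62.9 CPM in ALSC. ABSC and ALSC overlapped each other and lay below every AFSC library, with a shared change of -0.65 (SE 0.09, adjusted p = 0.00279).

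Fgf5, an FGF ligand and the most used marker of the primed epiblast, was at 189, 184 and 193 CPM in AFSC, 18.3, 13.5 and 17.2 CPM in ABSC and 119.8, 156 and 166 CPM in ALSC. All 6 libraries without bFGF were lower, but by very different amounts. The change was -3.53 (adjusted p = 1.25e-06) in ABSC and -0.36 (adjusted p = 0.125) in ALSC, and ABSC and ALSC differed by -3.17 (adjusted p = 1.39e-06). The de novo DNA methyltransferase genes fell by less: Dnmt3b was at 2025 ± 23 CPM in AFSC, 1612 ± 176 in ABSC and 1728 ± 119 in ALSC (mean ± SD, n = 3). Its change was -0.28 (SE 0.07, adjusted p = 0.0331), and the adjusted p was 0.127 without AFSC 2 and 0.149 without AFSC 3. For Dnmt3a the change was -0.36 (SE 0.08, adjusted p = 0.0214), with an adjusted p of 0.126 without AFSC 2 and 0.129 without AFSC 3. Otx2 and Sox3 did not pass the test. Otx2, a homeobox factor of the epiblast, was at 196 ± 10.1 CPM in AFSC, 155 ± 7.60 in ABSC and 197 ± 9.50 in ALSC, and Sox3 changed by 0.05 (SE 0.08, adjusted p = 0.839). The count of primed genes that fell was 10 with the block, 11 without the libraries numbered 1, 8 by DESeq2, and 3 without AFSC 2, AFSC 3 or ABSC 2.

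**Figure D1:**
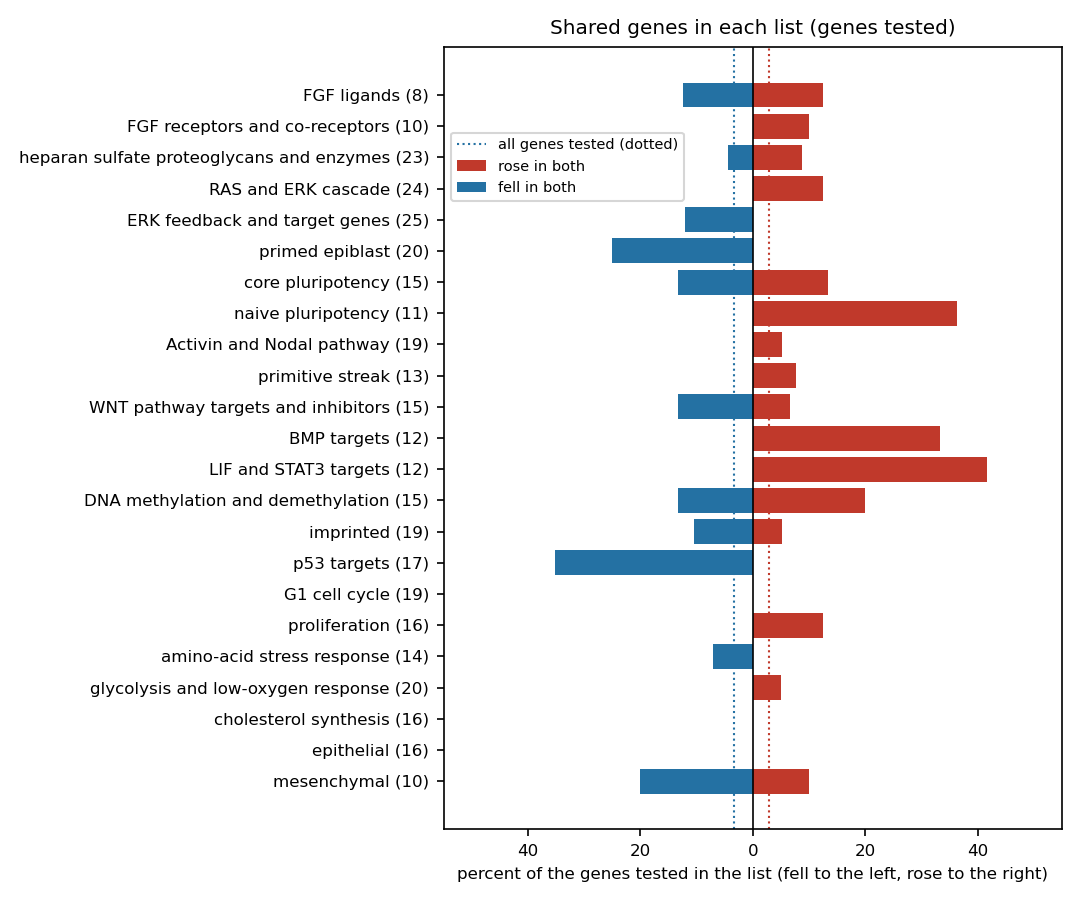
Bars show, for each gene list, the percent of its tested genes that rose (right) or fell (left) in the shared contrast, with the number tested in parentheses; dotted lines mark 2.86% rising and 3.34% falling among all genes tested. The p53 target and primed epiblast lists had falling members and no rising ones, and the naive pluripotency, BMP target and LIF target lists the reverse.

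Core pluripotency genes split. Of 15 tested, Gdf3 and Nanog rose and Sox2 and Utf1 fell, with a median change of 0.02. Pou5f1, the POU factor that defines pluripotent cells, was at 1074 ± 42.5 CPM in AFSC, 1226 ± 42.4 in ABSC and 935 ± 30.6 in ALSC (mean ± SD, n = 3). Its group means without bFGF lay on opposite sides of AFSC, and the contrast gave -0.01 (SE 0.04, adjusted p = 0.973). Sox2, the partner of Pou5f1 on many enhancers, was at 27.0, 25.0 and 23.9 CPM in AFSC, 13.7, 16.6 and 18.0 CPM in ABSC and 10.4, 12.2 and 12.9 CPM in ALSC. Every library without bFGF lay below every AFSC library, with a shared change of -0.87 (SE 0.11, adjusted p = 0.0015). Utf1, a chromatin-associated factor of pluripotent cells, was at 429.7 ± 8.71 CPM in AFSC, 330.3 ± 39.8 in ABSC and 231 ± 45.8 in ALSC. Its change was -0.64 (SE 0.11, adjusted p = 0.00754), and the adjusted p was 0.0754 without the libraries numbered 1.

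Nanog, a homeobox factor of the inner cell mass and epiblast, was at 146, 133 and 139.7 CPM in AFSC, 157, 185 and 199 CPM in ABSC and 268, 229.6 and 253 CPM in ALSC. The 3 groups did not overlap and the order was AFSC, ABSC, ALSC from low to high. The shared change of Nanog was 0.61 (SE 0.08, adjusted p = 0.00209), and ALSC lay above ABSC (-0.47, adjusted p = 0.00956 for ABSC against ALSC). Gdf3, a ligand of the TGF-beta family expressed in pluripotent cells, was at 0.567, 0.992 and 0.705 CPM in AFSC, 4.81, 9.47 and 10.5 CPM in ABSC and 7.44, 16.9 and 17.9 CPM in ALSC. Library 1 was the lowest of each group, and no library with bFGF reached any library without it. The shared change of Gdf3 was 3.82 (SE 0.42, adjusted p = 0.000804), with 3.43 (adjusted p = 0.00134) in ABSC and 4.20 (adjusted p = 0.000845) in ALSC. In an AFSC library 3 counts correspond to 0.141 to 0.155 CPM.

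Naive pluripotency genes, those of the preimplantation epiblast, rose where they were called. Of 16 listed genes 11 passed the filter on low counts, and the median was 0.79. Of the 11, 4 rose and 0 fell, against 2.86% and 3.34% of all genes. Genes that pass such a filter only through the groups where they are high had to differ, so the count and the median are only descriptions of the 11. Klf5, a Krüppel-like factor, was at 29.5, 34.2 and 28.9 CPM in AFSC, 42.3, 66.7 and 58.3 CPM in ABSC and 44.6, 49.2 and 49.7 CPM in ALSC, all 6 above AFSC. Its change was 0.74 (SE 0.13, adjusted p = 0.00901) and its adjusted p was 0.0686 without AFSC 3. Dppa3, a maternal factor that protects against DNA demethylation by TET enzymes, had 0 counts in the 3 AFSC libraries. It thus passed the filter only through the groups without bFGF and could only rise. It was at 1.87, 2.09 and 1.72 CPM in ABSC and 0.919, 0.940 and 0.459 CPM in ALSC, at least 39-fold and at least 16-fold higher than a floor of 3 counts over the AFSC group. Tfcp2l1, a factor downstream of LIF, and Fbxo15, an F-box protein gene, were shared by the rule but uneven. Tfcp2l1 changed by 0.28 (adjusted p = 0.628) in ABSC and 2.35 (adjusted p = 0.000878) in ALSC, and Fbxo15 by 0.80 (adjusted p = 0.14) and 2.31 (adjusted p = 0.00168). Klf4 was low, at 2.26 ± 0.617 CPM in AFSC, 2.60 ± 0.0175 in ABSC and 2.41 ± 0.127 in ALSC, and its change was 0.14 (SE 0.20, adjusted p = 0.792).

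**Figure D2:**
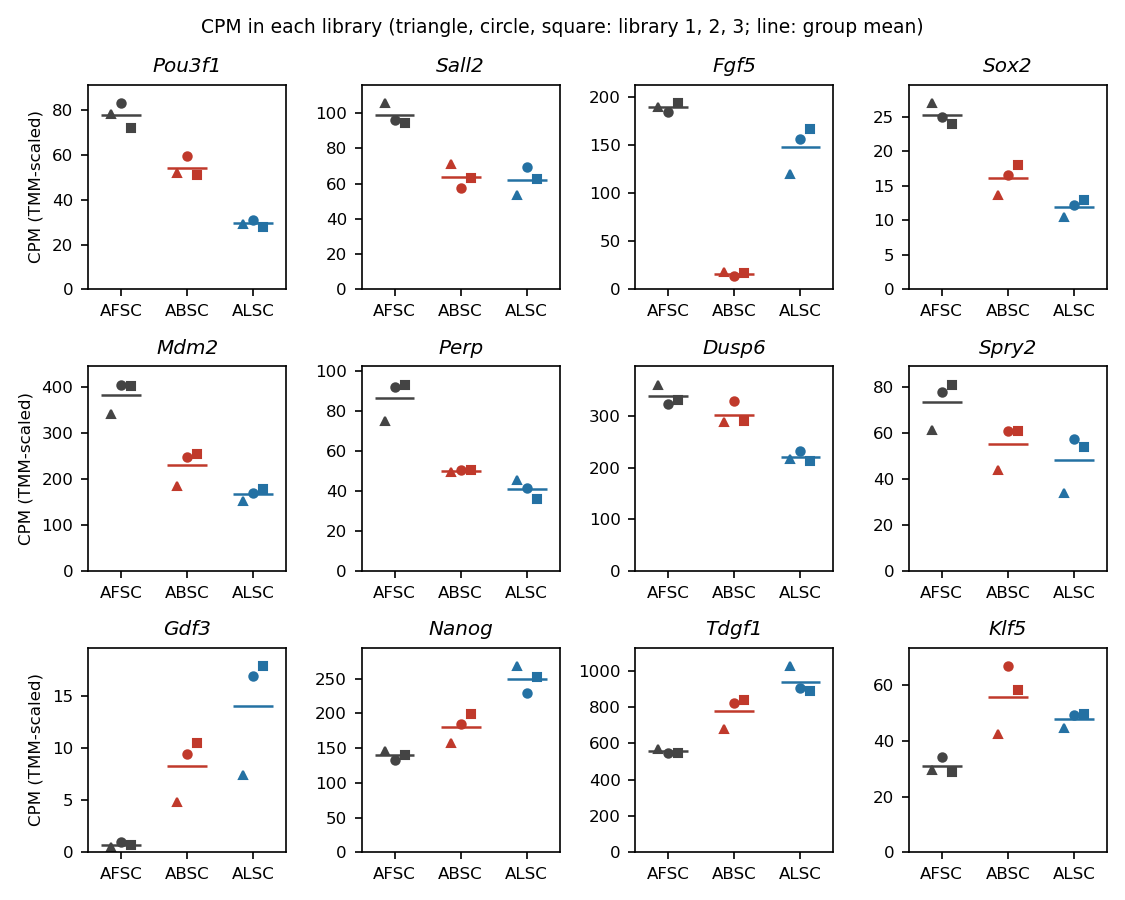
Each panel gives the CPM of 1 gene in every library, with library 1 as a triangle, library 2 as a circle and library 3 as a square, and the group mean as a line; each vertical axis starts at 0. Pou3f1, Sall2, Sox2, Mdm2 and Perp lie lower in all libraries without bFGF, Gdf3, Nanog, Tdgf1 and Klf5 lie higher in all of them, and Fgf5 is far lower in ABSC (18.3 CPM at most) than in ALSC (119.8 CPM at least).

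Several of these genes are neighbours. Apobec1, Gdf3, Dppa3, Nanog and Slc2a3 are 5 consecutive tested protein-coding genes on chr6:122577792-122801640 (224 kb, coordinates of the table, read as GRCm38), and all 5 rose. They were the longest such run of shared genes in 1 direction. The genome held 7 runs of 3 genes, 70 of 2 and 801 shared genes standing alone. The run was noticed after the values were seen. Apobec1, an RNA-editing cytidine deaminase, was at 3.61, 3.31 and 3.52 CPM in AFSC, 8.25, 7.74 and 7.69 CPM in ABSC and 10.9, 11.1 and 11.9 CPM in ALSC. The groups did not overlap, and its change was 1.44 (SE 0.12, adjusted p = 0.000139). Slc2a3, which encodes the glucose transporter GLUT3, was at 749, 477 and 469 CPM in AFSC, 1131, 1213 and 1176 CPM in ABSC and 933, 842 and 776 CPM in ALSC. AFSC 1 was far above AFSC 2 and 3 and just below the lowest ALSC library. The change of Slc2a3 was 0.82 (SE 0.14, adjusted p = 0.0083), with an adjusted p of 0.0516 without AFSC 2. Beyond both ends of the run, Foxj2, Necap1, M6pr and Rimklb did not pass the test. Phc1, a Polycomb gene lying further upstream, fell, with a change of -0.33 (SE 0.04, adjusted p = 0.00231).

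The sequence around the start of Nanog is shown because it is the core factor of this run. It is the RefSeq promoter of GRCm38.p6, chr6:122707239-122707538 on the plus strand, 250 bases before to 50 after the start, and the capitals mark a match to the SOX hexamer ACAATG, searched on both strands.
Nanog promoter 1: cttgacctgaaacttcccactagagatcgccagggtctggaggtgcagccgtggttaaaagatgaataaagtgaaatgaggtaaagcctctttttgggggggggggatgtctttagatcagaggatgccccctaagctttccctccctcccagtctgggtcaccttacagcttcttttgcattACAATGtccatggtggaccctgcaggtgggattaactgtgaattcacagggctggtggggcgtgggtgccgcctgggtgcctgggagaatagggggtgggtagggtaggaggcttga
The match begins 67 bases before the start. Of 32851 RefSeq promoters of the same length 12.6% held the hexamer, and the promoter of Apobec1 did not. No promoter of Gdf3, Dppa3 or Slc2a3 was available. A match describes the letters of the window and is not a measured binding site.

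**Figure D3:**
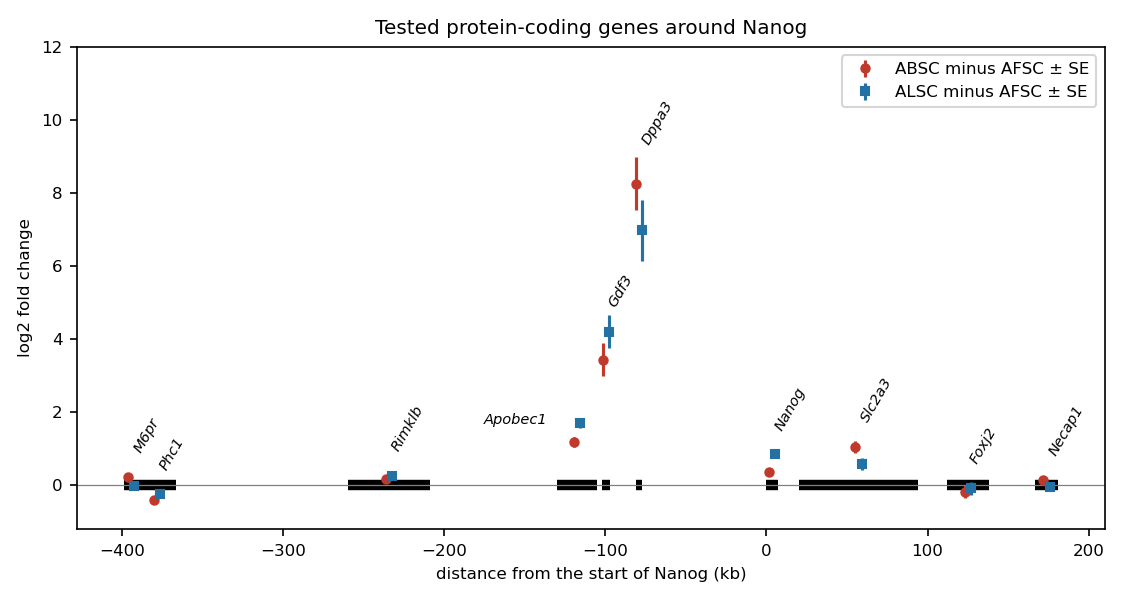
Log2 fold changes (± SE) against AFSC of the tested protein-coding genes around Nanog are plotted by their distance from the start of Nanog, circles for ABSC and squares for ALSC; black bars give each gene's extent. Apobec1, Gdf3, Dppa3, Nanog and Slc2a3 lie above 0 in both cell types, while the flanking genes lie near or below it; the fitted change of Dppa3 depends on its 0 counts in AFSC and is no bound.

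In the FGF pathway itself, 15 ligand genes were listed and 8 tested, of which Fgf17 rose and Fgf5 fell, against 2.86% rising and 3.34% falling of all genes. Fgf17 was at 1.13, 0.898 and 0.846 CPM in AFSC, 2.26, 3.14 and 3.29 CPM in ABSC and 8.04, 7.94 and 6.32 CPM in ALSC. The groups did not overlap and ALSC was highest, with a shared change of 2.27 (SE 0.22, adjusted p = 0.000317). Fgf4 and Fgf8 moved to opposite sides in ABSC and ALSC. Fgf4 changed by 0.22 (adjusted p = 0.158) in ABSC and -0.66 (adjusted p = 0.0022) in ALSC, and Fgf8 by -0.52 (adjusted p = 0.327) and 1.40 (adjusted p = 0.0128). Fgf2, the gene of the withdrawn factor, was below 1 CPM in every library, and its change was -0.81 (SE 0.52, adjusted p = 0.47).

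Of 10 receptor and co-receptor genes tested, 1 rose and 0 fell. This was Fgfr1, at 215 ± 11.3 CPM in AFSC, 297 ± 14.0 in ABSC and 226 ± 8.83 in ALSC, with 0.47 (adjusted p = 0.00133) in ABSC and 0.07 (adjusted p = 0.577) in ALSC. The adjusted p of its shared change was 0.103 without AFSC 2 and 0.113 without AFSC 3. Fgfr2 ranged from 2.55 to 17.4 CPM over the 9 libraries, library 1 being the lowest of each group, and its change was -0.14 (SE 0.45, adjusted p = 0.921). The annotated span of Fgfr2 in the table runs over many other tested genes. Of 23 genes for heparan sulfate proteoglycans and their enzymes, Gpc3 and Hs3st3b1 rose and Ext1, which builds the heparan sulfate chain, fell. Among all genes tested 2.86% rose and 3.34% fell. Hs3st3b1, a 3-O-sulfotransferase, was at 0.618, 0.614 and 0.611 CPM in AFSC, 2.55, 4.71 and 4.30 CPM in ABSC and 2.16, 1.88 and 2.04 CPM in ALSC. The groups did not overlap, and the shared change was 2.17 (SE 0.26, adjusted p = 0.00127). Ext1 was at 57.1 ± 3.14 CPM in AFSC, 47.0 ± 2.55 in ABSC and 45.4 ± 0.835 in ALSC, a change of -0.31 (SE 0.06, adjusted p = 0.0168), with an adjusted p above 0.05 without AFSC 2 or AFSC 3.

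The 24 tested genes of the RAS and ERK cascade had a median change of 0.03. Mapk3, Rasgrp1 and Rps6ka3 rose and 0 fell, against 2.86% and 3.34% of all genes. Rps6ka3, a kinase activated by ERK, was at 21.6, 19 and 19.8 CPM in AFSC, 36.6, 35.4 and 35.3 CPM in ABSC and 21.8, 24.9 and 24.9 CPM in ALSC. ABSC lay well above both other groups (0.59, adjusted p = 0.00307 against ALSC), and the shared change was 0.54 (SE 0.08, adjusted p = 0.00412). Mapk3, which encodes ERK1, changed by 0.51 (SE 0.13, adjusted p = 0.0484). Leaving out any of several single libraries took Mapk3 above 0.05, and without AFSC 2 its adjusted p was 0.223. The change of Mapk3 was 0.71 (adjusted p = 0.0155) in ABSC and 0.30 (adjusted p = 0.287) in ALSC. Rasgrp1, an exchange factor that activates RAS, changed by 0.48 (adjusted p = 0.265) in ABSC and 1.42 (adjusted p = 0.005) in ALSC. Its adjusted p was 0.0647 to 0.117 without AFSC 1, 2 or 3.

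Feedback inhibitors and targets of ERK were lower in the median than genes at large. Of 25 tested 3 fell and 0 rose, against 3.34% and 2.86% of all genes, and the median was -0.29. Dusp6, the phosphatase that inactivates ERK, was at 361, 323 and 331 CPM in AFSC, 288, 328 and 291 CPM in ABSC and 216, 232 and 212 CPM in ALSC. ABSC 2 lay within the AFSC range and all ALSC libraries lay below it. The shared change of Dusp6 was -0.39 (SE 0.06, adjusted p = 0.00441), made of -0.16 (adjusted p = 0.224) in ABSC and -0.62 (adjusted p = 0.00112) in ALSC, which differed from each other (0.46, adjusted p = 0.00286). Fosl1, an AP-1 subunit, was at 6.39, 6.14 and 5.78 CPM in AFSC, 4.03, 3.24 and 3.29 CPM in ABSC and 4, 2.30 and 2.70 CPM in ALSC. No library without bFGF reached AFSC, and the change was -0.91 (SE 0.18, adjusted p = 0.0176), with an adjusted p of 0.0617 to 0.0915 when 1 AFSC library was left out. Etv4 changed by -0.42 (SE 0.11, adjusted p = 0.0494), and its adjusted p was 0.0654 with the block and 0.208 without AFSC 3. The change of Etv4 was -0.21 (adjusted p = 0.438) in ABSC and -0.64 (adjusted p = 0.018) in ALSC.

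Other classic readouts of ERK did not pass. Dusp4, a dual-specificity phosphatase gene, changed by -0.35 (SE 0.36, adjusted p = 0.683), and its adjusted p was 0.00412 without the libraries numbered 1. Spry2 was at 61.2, 77.6 and 81.0 CPM in AFSC, 43.9, 60.8 and 60.7 CPM in ABSC and 34.0, 57.5 and 53.8 CPM in ALSC. Every library without bFGF lay below every AFSC library, library 1 was the lowest of each group, and the change of Spry2 was -0.51 (SE 0.17, adjusted p = 0.12). With the block the adjusted p of Spry2 was 2.87e-05. Spry4 changed by 0.38 (adjusted p = 0.583) in ABSC and -0.56 (adjusted p = 0.344) in ALSC, and Etv5 by 0.14 (adjusted p = 0.658) and 0.01 (adjusted p = 0.971). Egr1, an immediate-early gene, was at 32.1, 142 and 116 CPM in AFSC, 13.6, 37.2 and 32.9 CPM in ABSC and 22.2, 97.6 and 93.1 CPM in ALSC. Library 1 was the lowest of each group by a wide margin, the groups overlapped, and the contrast gave -1.12 (SE 0.54, adjusted p = 0.296), with 0.000322 as the adjusted p under the block. The count of feedback and target genes that fell was 8 with the block, 10 without the libraries numbered 1, 5 by limma voom, and 1 without AFSC 2 or AFSC 3.

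Of 17 tested targets of p53, the tumour suppressor that answers DNA damage and stress, 6 fell and 0 rose, against 3.34% and 2.86% of all genes. A negative change was found in 16, and the median was -0.42. The list's members that fell were Mdm2, Perp, Phlda3, Gtse1, Ccng1 and Sesn2. Mdm2, the ubiquitin ligase that degrades p53, was at 341, 404 and 401 CPM in AFSC, 185, 248 and 253 CPM in ABSC and 153, 169.9 and 178 CPM in ALSC. The 3 groups did not overlap and fell in the order AFSC, ABSC, ALSC. The shared change of Mdm2 was -0.97 (SE 0.10, adjusted p = 0.000588). Perp, a membrane protein of apoptosis and of epithelial junctions, was at 75, 92.2 and 93.3 CPM in AFSC, 49.4, 50.4 and 50.5 CPM in ABSC and 45.7, 41.7 and 36.1 CPM in ALSC. Both groups without bFGF lay below AFSC, and the change was -0.93 (SE 0.09, adjusted p = 0.000311).

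Phlda3, an inhibitor of AKT, was at 169, 164 and 169 CPM in AFSC, 131, 150.0 and 138 CPM in ABSC and 113, 105 and 117 CPM in ALSC, with a change of -0.42 (SE 0.06, adjusted p = 0.00216). The order of the groups was that of Mdm2, again with no overlap. Gtse1, a regulator of the G2 phase that restrains p53, changed by -0.49 (SE 0.10, adjusted p = 0.0206). Ccng1, which encodes cyclin G1 and is named here after its values were seen, changed by -0.36 (SE 0.08, adjusted p = 0.0259). Without AFSC 2 the adjusted p was 0.13 for Gtse1 and 0.14 for Ccng1. The change of Gtse1 was -0.36 (adjusted p = 0.112) in ABSC and -0.61 (adjusted p = 0.016) in ALSC. Sesn2, a stress-induced regulator of mTORC1, fell mainly in ALSC, with -0.40 (adjusted p = 0.00576) there against -0.07 (adjusted p = 0.648) in ABSC, and its adjusted p was 0.169 without AFSC 2. The count of p53 targets that fell was 14 with the block, 15 without the libraries numbered 1 and 11 by DESeq2, and 3 without AFSC 2 or AFSC 3.

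The promoters of Mdm2 and Ccng1 are shown as those, among the p53 targets that fell, whose only promoter held a match to the p53 half-site. That they hold a match was thus fixed by the choice. The capitals mark the match to this 10-base consensus, which p53 binds as pairs, searched on both strands. Both are RefSeq promoters of GRCm38.p6 on the minus strand, 250 bases before to 50 after the start, at chr10:117710709-117711008 for Mdm2 and chr11:40755237-40755536 for Ccng1.
Mdm2 promoter 1: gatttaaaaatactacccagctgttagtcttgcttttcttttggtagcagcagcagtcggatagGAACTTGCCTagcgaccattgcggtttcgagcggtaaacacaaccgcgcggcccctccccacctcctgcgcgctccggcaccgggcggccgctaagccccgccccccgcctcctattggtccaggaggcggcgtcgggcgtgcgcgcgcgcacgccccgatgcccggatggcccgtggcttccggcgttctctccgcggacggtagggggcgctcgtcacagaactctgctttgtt
Ccng1 promoter 1: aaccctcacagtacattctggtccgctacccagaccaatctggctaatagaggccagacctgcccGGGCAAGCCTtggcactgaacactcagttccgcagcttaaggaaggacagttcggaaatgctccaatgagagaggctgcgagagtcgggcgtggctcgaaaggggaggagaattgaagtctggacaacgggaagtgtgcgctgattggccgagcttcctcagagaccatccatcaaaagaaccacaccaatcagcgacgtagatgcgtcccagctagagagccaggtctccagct
The matches begin 186 and 185 bases before the start. A half-site was also found in 1 of the 2 promoters of Gtse1 and in neither that of Phlda3 nor that of Sesn2, and 8.36% of all promoters in the table held it. No promoter of Perp was available. These are descriptions of the letters in the window.

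The genes with the largest change in the cell type where they moved less were ranked among genes at 10 CPM or more. Only genes whose 3 AFSC libraries lay wholly on 1 side of the other 6 were ranked. The lack of overlap of the leading genes with AFSC was thus fixed by the choice. Of the 15 leading genes that rose, Gdf3, Hand1, Psmb8, Mov10 and Msx1 belong to lists described elsewhere in the text. Apobec3 and Apobec1 belong to the list for DNA methylation and demethylation. Of its 15 tested genes 3 rose and 2 fell, against 2.86% and 3.34% of all genes, with a median change of -0.03. Tnrc18, which encodes a large nuclear protein, was at 28.9, 28.3 and 27.3 CPM in AFSC, 63.5, 79.4 and 71.2 CPM in ABSC and 73.2, 89.9 and 80.5 CPM in ALSC. All 6 libraries without bFGF were above 2 times the AFSC level, and the shared change was 1.43 (SE 0.09, adjusted p = 3.96e-05). Mov10, an RNA helicase that restrains retroviruses and retrotransposons, was at 20.5, 20.2 and 19.5 CPM in AFSC, 36.7, 42.6 and 41.5 CPM in ABSC and 49.8, 45.3 and 43.6 CPM in ALSC, a change of 1.10 (SE 0.08, adjusted p = 8.02e-05). ALSC lay just above ABSC, and the test of that difference did not pass (-0.20, adjusted p = 0.181). Apobec3, a cytidine deaminase that acts on retroviral DNA, was at 0.979, 0.520 and 1.13 CPM in AFSC, 2.46, 2.82 and 2.68 CPM in ABSC and 13.5, 14.8 and 13.6 CPM in ALSC. It rose far more in ALSC, and ABSC and ALSC differed by -2.39 (adjusted p = 0.000105).

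Cdc42ep4, an effector of the GTPase CDC42, was at 24.6 ± 0.383 CPM in AFSC, 53.8 ± 6.15 in ABSC and 77.5 ± 14.5 in ALSC, a change of 1.39 (SE 0.12, adjusted p = 0.000202). H2afy2, the gene of the histone variant macroH2A2, was at 14.1 ± 2.11 CPM in AFSC, 36.3 ± 5.67 in ABSC and 30.3 ± 2.23 in ALSC, a change of 1.24 (SE 0.13, adjusted p = 0.000527). Ap1m2, a clathrin adaptor subunit of epithelial cells, was at 11.3 ± 0.995 CPM in AFSC, 38.1 ± 2.89 in ABSC and 25.8 ± 2.69 in ALSC. That AFSC did not overlap the other groups in these genes was a condition of the ranking. Acss1, a mitochondrial acetyl-CoA synthetase, and Nlrp9b, a gene of the NLR family, rose more in ABSC: Acss1 by 2.24 (adjusted p = 0.000137) against 1.13 (adjusted p = 0.0106) in ALSC, and Nlrp9b by 2.87 (adjusted p = 0.000182) against 1.17 (adjusted p = 0.0322). Ephx2, the soluble epoxide hydrolase, rose by 1.08 (adjusted p = 0.00971) in ABSC and 1.53 (adjusted p = 0.00265) in ALSC. Steap3, an iron reductase, changed by 1.07 (SE 0.21, adjusted p = 0.0151), and its adjusted p was above 0.05 when any 1 AFSC library was left out.

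Among the genes that fell, Psors1c2 had a change of nearly equal size in both cell types. It was at 28.4, 34.1 and 33.3 CPM in AFSC, 9.19, 8.68 and 6.17 CPM in ABSC and 8.41, 6.73 and 6.98 CPM in ALSC, a change of -2.05 (SE 0.13, adjusted p = 3.96e-05). ABSC and ALSC overlapped each other and did not pass the test against each other (0.12, adjusted p = 0.712). The neighbouring receptor genes for leukotriene B4, Ltb4r2 and Ltb4r1, fell together. Ltb4r2 was at 32.5 ± 4.79 CPM in AFSC, 7.93 ± 0.542 in ABSC and 12.8 ± 1.2 in ALSC, and Ltb4r1 at 13.0 ± 3.62, 3.50 ± 0.378 and 5.15 ± 0.0635 CPM. Their changes were -1.69 (SE 0.11, adjusted p = 3.97e-05) and -1.62 (SE 0.17, adjusted p = 0.000652).

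Platr10, a long noncoding RNA named for its link to pluripotency, was the most abundant of the leading genes that fell. It was at 138, 149.5 and 153 CPM in AFSC, 61.4, 57.0 and 54.6 CPM in ABSC and 62.3, 71.6 and 70.1 CPM in ALSC, with a change of -1.23 (SE 0.06, adjusted p = 2.16e-05). The spread within each group was small beside the gap to AFSC. Slc4a11, a membrane transporter, was at 78.1 ± 10.3 CPM in AFSC, 31.5 ± 2.75 in ABSC and 21.8 ± 2.34 in ALSC, a change of -1.58 (SE 0.10, adjusted p = 3.96e-05). S100a6, a calcium-binding protein gene, changed by -1.39 (adjusted p = 0.000955) in ABSC and -1.12 (adjusted p = 0.00485) in ALSC. Atg9b, an autophagy gene, and the predicted gene Gm32585 fell in both, with shared changes of -1.34 (SE 0.15, adjusted p = 0.000675) and -1.36 (SE 0.11, adjusted p = 0.000139). Vgf, a neurosecretory peptide precursor, Slc35d3, a transporter, and Jph4, a junctophilin, had a library numbered 1 away from its group: Jph4 was at 38.5, 14.7 and 14.4 CPM in ABSC. The call of Jph4 was lost when any AFSC library was left out, and also without ABSC 2, ABSC 3, ALSC 2 or ALSC 3. Grm6, a glutamate receptor gene, lost its call without AFSC 2, AFSC 3 or ABSC 2. Neither was shared without a filter on low counts (adjusted p = 0.195 for Jph4 and 0.161 for Grm6).

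**Figure D4:**
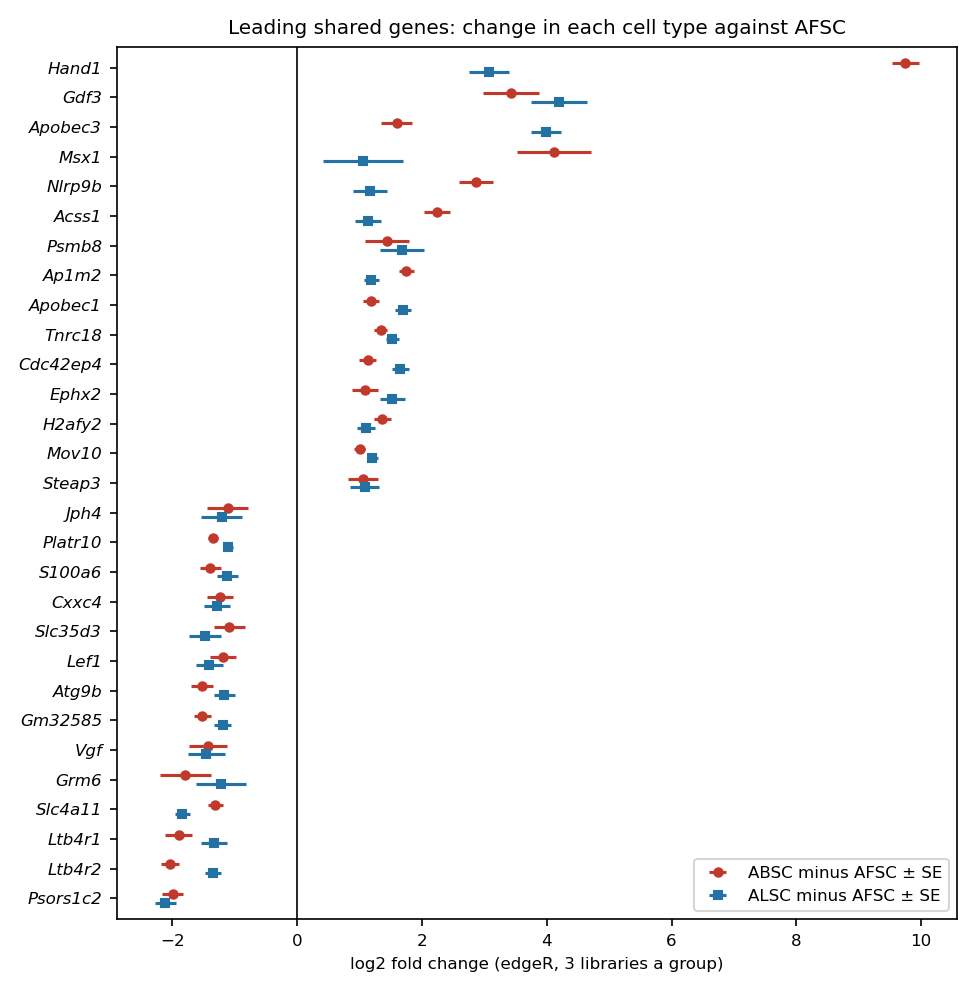
Log2 fold changes (± SE, edgeR) against AFSC of the 15 leading genes that rose and 14 of those that fell, circles for ABSC and squares for ALSC, ordered by the shared change. Most falling genes have both marks close together, between -1.08 and -2.11, while Hand1, Msx1, Apobec3 and Nlrp9b differ widely between the cell types. Ranking by the smaller change of the 2 cell types favours changes of like size.

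Of the genes that changed at least 2-fold, the most abundant that rose were Hand1, Cxcl12, Grik3, Sccpdh and Tnrc18. Cxcl12, a chemokine, was at 28.8 ± 2.77 CPM in AFSC, 120.2 ± 14.5 in ABSC and 37.9 ± 9.51 in ALSC, and Sccpdh at 26.2 ± 1.35, 142 ± 11.1 and 39.8 ± 7.13 CPM. Both were carried by ABSC, with changes in ALSC of 0.40 (adjusted p = 0.21) and 0.60 (adjusted p = 0.0193). Grik3, a kainate receptor subunit, changed by 1.74 (adjusted p = 0.000216) in ABSC and 0.80 (adjusted p = 0.0196) in ALSC. Of the most abundant that fell, Car2, carbonic anhydrase 2, was at 246, 279 and 282 CPM in AFSC, 72.6, 119 and 115 CPM in ABSC and 103, 166 and 168 CPM in ALSC. Library 1 was again the lowest of each group, AFSC lay above all others, and the change was -1.14 (SE 0.18, adjusted p = 0.00468). Nefl, the light neurofilament chain, was at 198 ± 14.2 CPM in AFSC, 67.8 ± 12.2 in ABSC and 135 ± 13.7 in ALSC. Wnt8a, a WNT ligand, was carried by ABSC, with -2.23 (adjusted p = 0.0049) there against -0.10 (adjusted p = 0.901) in ALSC, and its adjusted p was 0.0655 to 0.152 when 1 AFSC library was left out. It was also not shared without ABSC 2, without any 1 ALSC library, without a filter on low counts or without the libraries numbered 1.

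The Activin and Nodal pathway, which all 3 media feed, had 1 shared gene among 19 tested, beside 6.2% of all genes. Of the 19, 1 passed the contrast with opposite signs and 6 differed between ABSC and ALSC. Tdgf1, the Nodal co-receptor also called Cripto, was at 571, 549 and 547 CPM in AFSC, 680.2, 821 and 837 CPM in ABSC and 1024, 902 and 886 CPM in ALSC. Every library without bFGF was higher than every AFSC library, and the change was 0.62 (SE 0.07, adjusted p = 0.00118). Lefty1, a Nodal antagonist, moved to opposite sides, by -3.02 (adjusted p = 0.00366) in ABSC and 1.09 (adjusted p = 0.155) in ALSC. Of 13 primitive streak genes tested, T rose and 5 passed the contrast with opposite signs in ABSC and ALSC. T, or Brachyury, was at 65.9, 72.8 and 74.0 CPM in AFSC, 72.2, 151 and 153 CPM in ABSC and 134, 132 and 143 CPM in ALSC. ABSC 1 lay within the AFSC range, the change was 0.88 (SE 0.20, adjusted p = 0.032), and the adjusted p was 0.0755 with the block and 0.111 to 0.126 when 1 AFSC library was left out.

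Of 15 WNT pathway targets and inhibitors, Lef1 and Lgr5 fell and Notum rose, against 3.34% falling and 2.86% rising of all genes. Lef1, a transcription factor of WNT signalling, was at 12.7, 19.4 and 16.8 CPM in AFSC, 5.26, 8.79 and 7.44 CPM in ABSC and 6.66, 5.85 and 5.96 CPM in ALSC. AFSC lay above all others, and the change was -1.30 (SE 0.17, adjusted p = 0.00209). Lgr5, an R-spondin receptor, was at 1.03, 1.23 and 1.88 CPM in AFSC, 0, 0.157 and 0 CPM in ABSC and 0.413, 0.522 and 0.560 CPM in ALSC, a change of -3.04 (SE 0.48, adjusted p = 0.00532) at levels of few counts. Cxxc4, a WNT inhibitor that was not on the list but was among the leading genes, was at 10.5 ± 1.34 CPM in AFSC, 4.45 ± 0.278 in ABSC and 4.27 ± 1.25 in ALSC, a change of -1.26 (SE 0.17, adjusted p = 0.00233).

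Targets of the factors added in place of bFGF were shared by the rule but uneven in size. Of 12 BMP targets 4 rose, against 2.86% of all genes. The median was 1.69 in ABSC and 0.12 in ALSC, and 9 of the 12 differed between ABSC and ALSC. Hand1, a basic helix-loop-helix factor of trophoblast and extraembryonic mesoderm, was at 0.155, 0.189 and 0.376 CPM in AFSC, 244, 208 and 188 CPM in ABSC and 2.53, 1.88 and 1.83 CPM in ALSC. ALSC lay above AFSC without overlap but at a low level, ABSC lay far above both, and the shared change is mostly that of ABSC (9.75, adjusted p = 9.17e-09, against 3.08 (adjusted p = 0.000701) in ALSC). Id1 changed by 4.85 (adjusted p = 0.000121) in ABSC and 0.86 (adjusted p = 0.296) in ALSC, and Msx1 by 4.12 (adjusted p = 0.00229) and 1.06 (adjusted p = 0.393). The shared adjusted p of Msx1 was 0.0744 to 0.122 when 1 AFSC library was left out, 0.17 by limma voom and 0.12 without a filter on low counts. Bambi, a BMP-induced decoy receptor, was even, at 0.54 (adjusted p = 0.0358) and 0.50 (adjusted p = 0.0536), but its call was lost without AFSC 1, AFSC 2, ABSC 2, ABSC 3, ALSC 2 or ALSC 3. Of 12 LIF and STAT3 targets 5 rose, against the same 2.86% of all genes. Socs3 changed by 3.73 (adjusted p = 5.27e-05) in ALSC and 0.65 (adjusted p = 0.0992) in ABSC, and Stat3 by 2.03 (adjusted p = 5.27e-05) and 0.01 (adjusted p = 0.987). The ABSC change of Stat3 took the other sign, so that it was not shared, without the libraries numbered 1, without AFSC 2, AFSC 3 or ABSC 1, and with unscaled library sizes. Lifr, the LIF receptor, moved the other way round, with 1.17 (adjusted p = 0.000155) in ABSC and 0.26 (adjusted p = 0.205) in ALSC. Il6st, the shared receptor chain gp130, was even at 0.64 (adjusted p = 0.0219) and 0.55 (adjusted p = 0.0487). But its call was lost when any AFSC library was left out, and also without ABSC 2, ABSC 3 or ALSC 2. Without AFSC 2, 3 LIF and STAT3 targets and 2 BMP targets rose.

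Imprinted genes moved both ways. Of 19 tested, Snrpn and Ndn fell and Igf2r rose. Snrpn, the paternally expressed gene of the Prader-Willi region, was at 189, 187 and 191 CPM in AFSC, 152, 133 and 127 CPM in ABSC and 134, 142 and 138 CPM in ALSC. ABSC and ALSC overlapped each other and lay below AFSC, with a change of -0.46 (SE 0.06, adjusted p = 0.00177). Ndn, of the same region on chromosome 7, was at 14.1, 14.7 and 13.3 CPM in AFSC, 8.55, 8.16 and 8.05 CPM in ABSC and 10.3, 10.9 and 11.5 CPM in ALSC, a change of -0.57 (SE 0.09, adjusted p = 0.00638), and its adjusted p was 0.0561 without AFSC 2. Magel2, the next tested gene and likewise paternally expressed, was named after its values were seen and changed by -1.12 (SE 0.15, adjusted p = 0.00195). Snrpn, Ndn and Magel2 are thus 1 of the 7 runs of 3. Igf2r, expressed from the maternal copy in most tissues, was at 87.5 ± 3.40 CPM in AFSC, 136 ± 2.54 in ABSC and 109.8 ± 7.2 in ALSC, a change of 0.48 (SE 0.06, adjusted p = 0.000953), and its span holds the antisense gene Airn.

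Lists for growth and metabolism, of 14 to 20 tested genes each, held 0 to 2 shared genes. Over all genes tested 6.2% were shared, and a departure from that share was not tested. Of 19 genes of the G1 phase 0 were shared, and with the block 3 rose and 6 fell. Of 16 proliferation genes Mcm6 and Top2a rose by little: Mcm6, of the replicative helicase, was at 298 ± 3.63 CPM in AFSC, 378 ± 8.40 in ABSC and 348 ± 12.2 in ALSC, a change of 0.28 (SE 0.04, adjusted p = 0.00399). Top2a changed by 0.07 (adjusted p = 0.547) in ABSC and 0.30 (adjusted p = 0.00787) in ALSC, and its shared adjusted p was 0.106 to 0.16 when 1 AFSC library was left out and 0.0742 to 0.0907 without ABSC 2, ABSC 3 or ALSC 2. Sesn2 was the only shared gene of 14 in the amino-acid stress list and Slc2a3 of 20 in the glycolysis and low-oxygen list; with the block, 6 amino-acid stress genes rose and 7 glycolysis genes fell. Of 16 cholesterol synthesis genes 0 were shared, and with the block 2 rose and 2 fell. Of 16 epithelial genes 0 were shared, and Cdh1, E-cadherin, was at 885 ± 51.5 CPM in AFSC, 875 ± 88.2 in ABSC and 842 ± 73.6 in ALSC. Of 10 mesenchymal genes Fn1 rose and Cdh11 and Twist1 fell. Fn1, fibronectin, was at 188, 197 and 196 CPM in AFSC, 327, 298 and 296 CPM in ABSC and 288, 242 and 227 CPM in ALSC, a change of 0.52 (SE 0.08, adjusted p = 0.00315), with AFSC below all others. Twist1 was near the limit of detection in ALSC, at 0.230, 0.157 and 0.153 CPM, and at 1.39, 1.28 and 1.41 CPM in AFSC.

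Markers of other cell types were checked as lists. Of 14 trophoblast markers 8 were tested, and Hand1 and Tfap2c rose. The adjusted p of Tfap2c was 0.0836 to 0.162 when 1 AFSC library was left out, 0.0763 to 0.0836 without ABSC 2, ABSC 3, ALSC 2 or ALSC 3, 0.0713 by limma voom and 0.22 without a filter on low counts. Tpbpa, Prl3d1 and Psg29 had 0 counts in all libraries. The summed level of the list was 14.7 to 19.6 CPM in AFSC, 217 to 269 in ABSC, most of it Hand1, and 30.2 to 33.6 in ALSC. Of 10 primitive endoderm markers tested Col4a2 rose, carried by ABSC (1.49, adjusted p = 0.00011 against 0.07 (adjusted p = 0.802) in ALSC), and Ttr had 0 counts. The list summed to 79.8 to 87.0 CPM in AFSC, 128 to 157 in ABSC and 77.4 to 103 in ALSC. The median change of its 10 tested genes was nevertheless -0.76 in ABSC, and 0.13 in ALSC. In the contrast 5 of the 10 had a positive change. Of 8 fibroblast markers tested Acta2 rose, at under 2 CPM in every library, and its call was lost when any library was left out. Of 12 germ cell markers 4 were tested, and Dppa3 rose, which had 0 counts in AFSC and could only rise. The germ cell list summed to 40.3 to 49.1 CPM in AFSC, 33.3 to 36.4 in ABSC and 74.7 to 96.8 in ALSC. None of 5 neural ectoderm markers or of 8 blood and endothelial markers tested was shared; with the block 2 and 3 of them fell. In bulk RNA, more cells of a type and more RNA per cell cannot be told apart, and the part of other cell types in the shared changes was not tested.

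By position, the shared genes were spread over the genome. The shared share of tested genes was between 3.93% (chromosome 13) and 9.41% (the X chromosome) over the autosomes and X. The median change of all tested genes of these chromosomes lay between -0.03 and 0.04. The 25 tested mitochondrial genes had a median of -0.18, with -0.36 in ABSC and -0.06 in ALSC, and 0 were shared. Of 1038 tested genes that the table assigns to a transcription factor family, 29 rose and 42 fell (6.84%), close to the 6.2% of all genes.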

How the data were processed

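RNA of 3 groups of cultured mouse cells, 3 libraries each, was measured by poly-A RNA-seq with an unstranded kit, per the labels' protocols. The deposited table holds unnormalized read counts for each gene, made by the authors with HISAT2 2.0.5 and featureCounts 1.5.0-p3, per the submitters' processing notes. The notes name mm9, but of 54409 table IDs found in GENCODE M21 (GRCm38) 98.33% had the same coordinates, so coordinates are read as GRCm38. The 346 entries without an ID (0.208% to 0.227% of counts) were left out.

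The test used edgeR 4.0.16 (R 4.3.3): filterByExpr (minimum count 10, minimum total 15), TMM (factors 0.963 to 1.06), 1 robust quasi-likelihood fit of all 9 libraries, 2-sided F tests and Benjamini-Hochberg adjustment over 16178 genes. Each SE is the size of the change divided by the root of its F. The groups without bFGF share the 3 AFSC libraries as their control, so no overlap between the group comparisons is given beyond the count the contrast fixes. Limits from 3 counts cover counting error only.

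The members, the 29 gene lists and the naming rule were chosen with earlier results of these data known. The rule names 28 key genes, up to 4 shared genes per list at 1 CPM or more, the 15 rising and 15 falling genes with the largest smaller change (10 CPM or more, AFSC not overlapping) and the 5 most abundant in each direction at 2-fold or more. Lists are described by counts and medians. A few genes that the rule or the lists would hold are not reported here and were left out of both.

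Libraries of the same number in different groups deviated together from their group means (correlation 0.197 to 0.554, against -0.426 to 0.273 for different numbers). Every pair of the same number was above 0.1, and a fit with the number as a block was run, from the data and not from the labels. Numbers 2 and 3 were hardly told apart. Between groups their libraries stood at 0.197 to 0.356 with the same number and at 0.221 to 0.273 with the other. With library 1 apart in every group, deviations from a group mean put libraries 2 and 3 on the same side. The data thus set number 1 apart, and the pairing within numbers 2 and 3 is assumed. Other alternatives were DESeq2 1.42.0, limma 3.58.1 (voom), other scalings and filters, and leaving out libraries. The code was tested on simulated counts. Promoters are RefSeq's.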

Additional observations from a re-analysis of the deposited data

Results flagged for a closer look

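For 46 of the 98 genes chosen by the naming rule, the changes of ABSC and ALSC against AFSC differed from each other: the test of ABSC against ALSC passed (edgeR, adjusted p under 0.05, 3 libraries a group). Of these, 41 were shared genes, 24 of them higher in ABSC. Values below are log2 differences, ABSC minus ALSC, and no explanation is weighed.

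Among shared genes that rose, those higher in ABSC were Hand1 (6.67), Id1 (3.99), Msx1 (3.06), Sccpdh (1.84), Acta2 (1.75), Nlrp9b (1.70), Cxcl12 (1.67), Col4a2 (1.42), Dppa3 (1.28), Acss1 (1.11), Grik3 (0.94), Hs3st3b1 (0.92), Lifr (0.92), Rps6ka3 (0.59), Ap1m2 (0.56), Fgfr1 (0.40) and Igf2r (0.31). Those higher in ALSC were Socs3 (-3.08), Apobec3 (-2.39), Tfcp2l1 (-2.07), Stat3 (-2.03), Fbxo15 (-1.51), Fgf17 (-1.36), Rasgrp1 (-0.94), Cdc42ep4 (-0.53), Apobec1 (-0.52), Nanog (-0.47) and Top2a (-0.23).

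Among shared genes that fell, those that fell further in ABSC were Fgf5 (-3.17), Lgr5 (-3.14), Wnt8a (-2.13), Nefl (-0.99), Ltb4r2 (-0.69) and Ndn (-0.40). Those that fell further in ALSC were Pou3f1 (0.88), Slc4a11 (0.53), Utf1 (0.52), Dusp6 (0.46), Mdm2 (0.46), Sesn2 (0.33) and Phlda3 (0.32). Of these, Mdm2, Sesn2 and Phlda3 are p53 targets. The genes that were not shared but differed between the cell types were Lefty1 (-4.11), Fgf8 (-1.92), Otx2 (-0.35), Pou5f1 (0.39) and Fgf4 (0.88).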

How the results depend on the processing

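The count of shared genes was 1010 with DESeq2 size factors in edgeR, 954 with library size only, 1055 without a filter on low counts, 978 with at least 1 CPM in 3 libraries, 1458 by DESeq2 and 984 by limma voom. DESeq2 called 717 rising and 741 falling genes, against 463 and 540. With the replicate block, which pairs libraries by number, the counts were 2820 shared, 1335 rising, 1485 falling, 1540 of like size, 1213 differing between ABSC and ALSC, and 130 genes of the lists in place of 58. Without the libraries numbered 1 these were 3762, 1786, 1976, 2078, 1699 and 166. An adjusted p under 0.01 left 393 shared genes, a fold of at least 2 left 302, and a ratio of at least 0.75 left 277 of like size. Leaving out 1 library at a time gave 345 to 1303 shared genes, 154 to 587 rising, 191 to 716 falling, 206 to 737 of like size, 141 to 453 differing between ABSC and ALSC, and 34 to 71 list genes. The lowest of each range was without AFSC 2. Of the 83 named genes that were called, 50 were called under every alternative and 55 whenever 1 library was left out, and none changed direction. With the replicate block 2 named genes lost their call, Etv4 (adjusted p = 0.0654) and T (0.0755), and Egr1 and Spry2 gained one. Calls of low genes are limited by depth, at 0.138 to 0.157 CPM for 3 counts in a library.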

Other observations

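Some further groups of shared genes were listed after their first members had been seen among the results, so the lists are not independent of these data, and the counts of members whose values had not been seen first are given beside them. Of 22 tested genes of MHC class I antigen presentation, which display peptides on the cell surface, 10 rose and Pdia3 fell, with a median log2 change of 0.44. Among all genes tested 2.86% rose and 3.34% fell. The fall of Pdia3 did not pass when any 1 library other than AFSC 1 was left out (adjusted p = 0.051 to 0.253). Of the 15 not seen first, 3 rose and 1 fell, with a median of 0.08. H2-K1, a class I heavy chain, was at 68.0 ± 6.49 CPM in AFSC, 101 ± 7.2 in ABSC and 125 ± 16.5 in ALSC (mean ± SD, n = 3), a change of 0.73 (SE 0.09, adjusted p = 0.00164). Tapbp, which encodes tapasin, was at 21.9 ± 4.02, 43.9 ± 13.9 and 51.1 ± 1.35 CPM, a change of 1.11 (SE 0.20, adjusted p = 0.00892), with an adjusted p of 0.0607 when no filter on low counts was used. Near-identical class I genes may share reads. Of 32 tested genes of the interferon response 11 rose and 0 fell, with a median of 0.64. Of the 25 not seen first 4 rose, beside 2.86% of all genes. Irf1, a transcription factor of that response, was at 31.1, 32.1 and 31.2 CPM in AFSC, 36.8, 61.8 and 63.8 CPM in ABSC and 69.9, 60.2 and 65.7 CPM in ALSC, with all 6 libraries above AFSC and a change of 0.92 (SE 0.16, adjusted p = 0.00755). Isg15, a ubiquitin-like modifier, changed by 2.40 (SE 0.39, adjusted p = 0.00556) at levels below 5 CPM. Without any 1 of AFSC 1, AFSC 2 and AFSC 3, 6 antigen presentation genes and 6 to 7 interferon genes rose, and without the libraries numbered 1, 11 and 18.

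Of 38 tested neuronal and neurosecretory genes, 18 fell and 1, Stmn2, rose, with a median of -0.74. Of the 24 not seen first 4 fell and 1 rose, with a median of -0.38. Among all genes tested 3.34% fell and 2.86% rose. Nefm, the medium neurofilament chain, was at 49.3 ± 1.49 CPM in AFSC, 16.1 ± 2.13 in ABSC and 25.9 ± 4.43 in ALSC, a change of -1.27 (SE 0.11, adjusted p = 0.000188). Dcx, a microtubule protein of young neurons, was at 2.32, 3.69 and 3.66 CPM in AFSC, 0.540, 0.784 and 0.759 CPM in ABSC and 0.873, 0.731 and 0.764 CPM in ALSC, a change of -2.11 (SE 0.22, adjusted p = 0.000608). Of 12 listed markers of neural ectoderm, 5 were tested and 0 were shared. All 5 had a negative change, with a median of -0.26, and the list summed to 275 to 298 CPM in AFSC, 234 to 258 in ABSC and 232 to 314 in ALSC. Their part in the neuronal counts was not tested. Sox1 had 1 to 5 counts per AFSC library and Pax6 0 to 7, too few to be tested. The count that fell was 12 to 14 without any 1 AFSC library, 24 with the block and 26 without the libraries numbered 1.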
